A study of Arabidopsis thaliana with 6 samples.

Results

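Tetraspanins were followed in whole seedlings of Arabidopsis thaliana that carry mutations in VFB genes. Members were taken by gene symbol alone, as probe sets paired with exactly 1 gene whose symbol is TET followed by a number, whether bright or dim. This gave 15 probe sets for 15 genes, among 13513 single-gene probe sets and 22746 gene probe sets on the ATH1 array. They are TET2 to TET16, each with 1 probe set. TRN2, which RefSeq also lists as TET1, and TET17 have no probe set named here and were not analysed.

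The wild type group held 3 arrays of light-grown Col-0 seedlings, 10 days old by every label. The mutant group held 3 arrays of light-grown seedlings called a VFB triple mutant, and the labels name neither the mutated genes nor their alleles nor the background accession. VFB genes encode F-box proteins, the substrate-binding subunits of ubiquitin ligases, and are related to the TIR1/AFB auxin receptors. The mutants are 10 days old in the descriptions but 5 days old in the source names and extract protocols, so genotype and age cannot be told apart if the younger age is right. Nor can genotype and accession be told apart if the mutant's background is not Col-0. For mutant replicate 3 the extract protocol names No-0 wild type in place of the mutant, and results are given below with and without that array where it matters. Its log2 signals correlated at 0.978 to 0.980 with the other mutant arrays and at 0.946 to 0.956 with the wild type arrays, across tested probe sets, which are not independent replicates. Over all pairs of a mutant and a wild type array the range was 0.940 to 0.956, and the highest of these belonged to mutant replicate 3. The genotype could not be checked on the arrays, since none of the named probe sets belongs to a VFB gene.

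Tetraspanins are small proteins that cross the membrane several times and carry a large cysteine-rich loop outside the cell. They gather with each other and with partner proteins into membrane microdomains, and they are found on the plasma membrane, on endosomes and on vesicles released from cells. In plants they have been linked to organ patterning and growth, to reproduction, to plasmodesmata and to defence against fungi. Arabidopsis TET8 is widely used as a marker of extracellular vesicles.

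Values are MAS5 signals, the summary of a probe set's brightness on a linear scale. Fold changes and tests use log2(signal + 16), mutant minus wild type, so the change of dim probe sets is understated. Testing was limited to probe sets with a mean log2 value beyond the 40th percentile of all gene probe sets, which corresponds to a signal of about 108.6. Of the 15 tetraspanins 7 passed this filter and 8 did not. The probe sets have no common scale, so levels are compared only between arrays for the same gene.

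Of the 7 tested tetraspanins 1 fell, TET10, and 0 rose. Across all 13647 tested probe sets 18.6% passed the same threshold (limma, adjusted p below 0.05), 10.4% lower and 8.17% higher in the mutant, so 1 call among 7 is near the background. The median log2 change was -0.27 over the 7 members and -0.05 over all tested probe sets. The change lay below 0 in 5 of the 7 members and in 7657 of all tested probe sets.

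TET10 (AT1G63260) gave signals of 823.6, 713.5 and 717.5 in wild type replicates 1 to 3. In mutant replicates 1 to 3 it gave 379.8, 503.4 and 498.8. Every mutant array lay below every wild type array, with a gap of 210.1 between the groups, and mutant replicate 1 was the lowest. Wild type averaged 751.5 ± 62.4 and the mutant 460.7 ± 70.1 (SD, n = 3 each). TET10 fell 1.62-fold, a log2 change of -0.70 ± 0.138 (SE; limma, adjusted p = 0.0040), with a 95% interval from -0.99 to -0.40. Without mutant replicate 3 the log2 change was -0.76, and over 15 alternative limma fits it ran from -0.76 to -0.57 and passed in each. A test with unequal variances and no shared spread called 6 probe sets in all, and TET10 was not among them (adjusted p = 0.163). In whole seedlings, fewer cells of a type that expresses TET10 and less TET10 RNA per cell cannot be told apart.

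The fall of TET10 was moderate among the changes in this series. It ranked 567th by size among the 1426 probe sets called lower, and 4.24% of tested probe sets had a log2 change as low. By p-value it ranked 843rd of 13647.

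**Figure D1:**
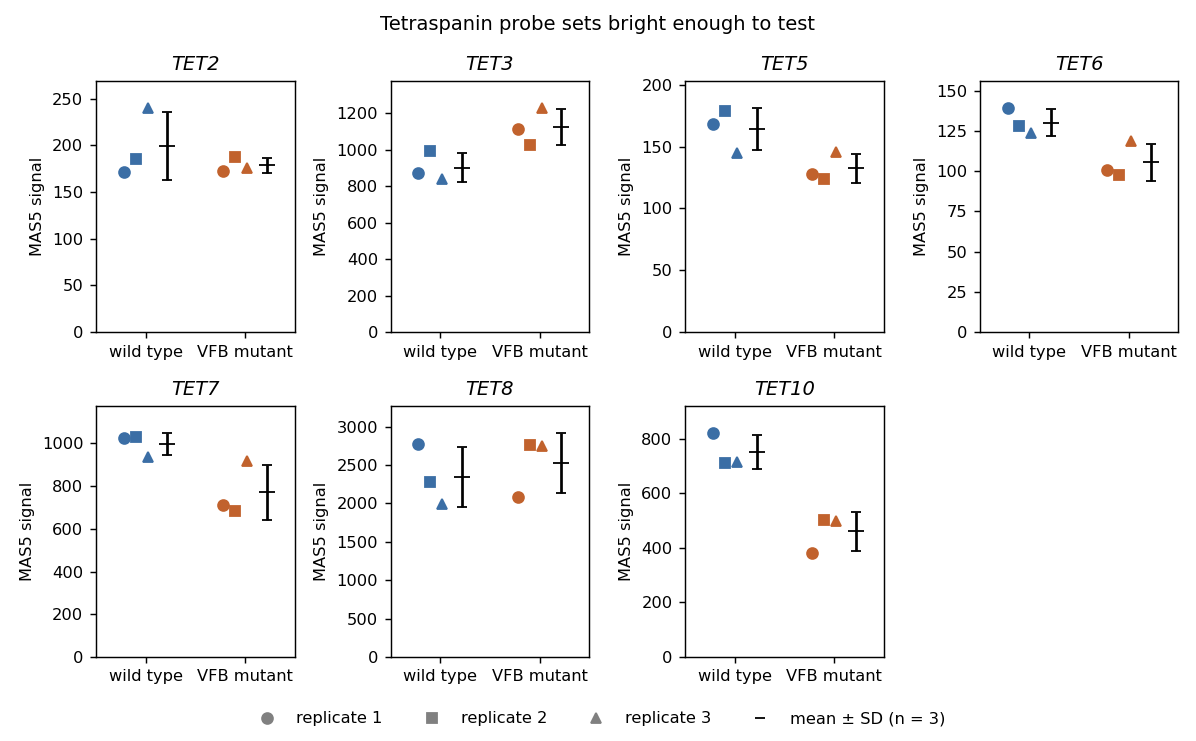
MAS5 signal (linear axis from 0, separate scale per panel) of the 7 tested tetraspanins, with 1 point per array and the mean ± SD of each group beside the points. The 3 mutant arrays of TET10 lie between 379.8 and 503.4, below the 3 wild type arrays between 713.5 and 823.6, whereas the arrays of TET8 and TET2 overlap.

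TET8 (AT2G23810), the vesicle marker, gave 2770, 2280.3 and 1991.9 in wild type and 2081.6, 2767 and 2749.2 in the mutant. The groups overlapped over most of their range, and the means were 2347 ± 393 and 2533 ± 391. Its log2 change was 0.11 ± 0.143 (limma, adjusted p = 0.647), with an interval from -0.20 to 0.42. Leaving out 1 array gave values from -0.0012, without wild type replicate 3, to 0.24.

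TET9 (AT4G30430), the near relative of TET8 with which it has been seen at fungal infection sites, was too dim to test. It gave 29, 14.2 and 14.9 in wild type and 1.6, 9.4 and 39.6 in the mutant. The mutant arrays included both the lowest and the highest value, so no direction can be read.

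TET7 (AT4G28050) gave 1026.7, 1030.4 and 936.9 in wild type and 711.8, 684.2 and 920.2 in the mutant. Every mutant array was lower than every wild type array, but mutant replicate 3 missed the lowest wild type value by only 16.7. With all arrays the log2 change was -0.37 ± 0.130 and did not pass (limma, adjusted p = 0.0633). Without mutant replicate 3, the array whose extract protocol names another plant, it was -0.50 and passed (adjusted p = 0.0146). TET7 did not pass with any other single array left out (limma, largest adjusted p = 0.218, without mutant replicate 2). After median centring its log2 change was -0.28 and did not pass (limma, adjusted p = 0.164).

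TET3 (AT3G45600), a protein found in plasmodesmata, gave 874.8, 992.2 and 840.8 in wild type and 1114.7, 1028.7 and 1229.3 in the mutant. It was higher in every mutant array than in any wild type array, by at least 36.5. The log2 change of 0.31 ± 0.116 did not pass as deposited (limma, adjusted p = 0.0848). After each array was centred on its median the change was 0.40 and passed (adjusted p = 0.0317). That centring moved the median change of all tested probe sets up by 0.09. Without mutant replicate 3, the highest array for TET3, the log2 change was 0.25 and did not pass (limma, adjusted p = 0.207). TET3 did not pass with any other single array left out either (limma, smallest adjusted p = 0.0879).

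TET5 and TET6 act together to limit organ growth, and neither passed. TET5 (AT4G23410) gave 168.6, 178.5 and 145.1 in wild type and 127.6, 123.8 and 146 in the mutant, and changed by -0.28 ± 0.173 on the log2 scale (limma, adjusted p = 0.301). TET6 (AT3G12090) gave 139.3, 127.8 and 123.5 in wild type and 100.5, 97.5 and 118.8 in the mutant, and changed by -0.27 ± 0.184 on the log2 scale (limma, adjusted p = 0.349). For TET6 all mutant arrays were below all wild type arrays, by a gap of 4.7. For TET5 mutant replicate 3 lay 0.9 above the lowest wild type array. TET6 also lay just above the filter, with a mean log2 value at percentile 41.2.

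TET2 (AT2G19580) gave 171.9, 185.9 and 240.1 in wild type and 172.7, 187.3 and 175.9 in the mutant. All mutant values fell within the wild type range, and only wild type replicate 3 stood higher. The log2 change was -0.13 ± 0.169 (limma, adjusted p = 0.640), with an interval from -0.50 to 0.23.

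The groups did not overlap for 4 of the 7 tested members, TET3, TET6, TET7 and TET10, while they did not overlap in 36.1% of all tested probe sets. Mutant replicate 3 was the highest mutant array for 4 of the 7, and mutant replicate 1 the highest for 0. The lowest mutant array was replicate 1 for 3 members and replicate 2 for 4.

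**Figure D2:**
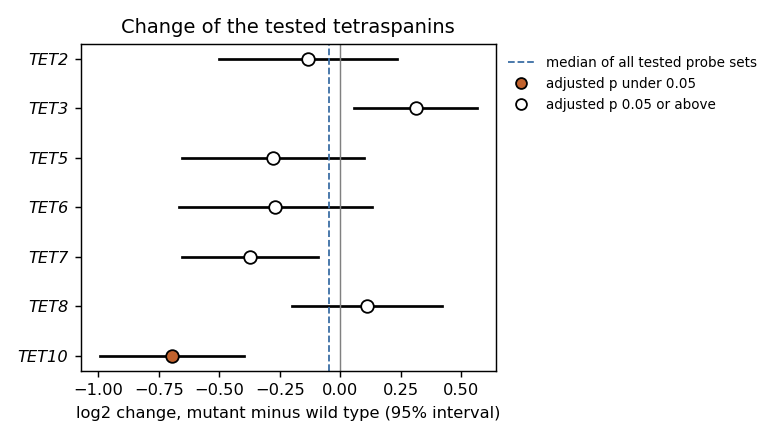
Log2 change, mutant minus wild type, of the 7 tested tetraspanins with 95% intervals from the limma fit. The filled point marks TET10, whose interval runs from -0.99 to -0.40, and the dashed line is the median of all tested probe sets at -0.05.

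The 8 dim members were TET4, TET9 and TET11 to TET16, and their mean signals ran from 2.07 to 35.0 in either group. Their mean log2 values reached at most percentile 22.0, that of TET14. Without the brightness filter none of the 8 passed (limma, smallest adjusted p = 0.358, for TET14), where 9.32% of all 22746 probe sets, bright and dim together, did. In that fit 0 of the 8 had an unadjusted p below 0.05. The shares among dim probe sets alone were not counted for that fit, so neither count is set against its proper background.

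TET16 (AT1G18510) gave 1.7, 2.5 and 2 in wild type and 7.2, 5.6 and 9.7 in the mutant. It was the 1 dim member whose groups did not overlap, against 15.7% of dim probe sets. Its log2 change was 0.38 with an offset of 16, 1.45 with an offset of 1 and 0.11 with an offset of 64, so at these signals the offset sets the size. The value without the filter did not pass (limma, adjusted p = 0.468).

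TET11 (AT1G18520) is the gene next to TET16 in the RefSeq order and is known from the male germ line, as is TET12. TET11 gave 51.9, 1.8 and 15.1 in wild type and 4.1, 22.7 and 9.5 in the mutant. TET12 (AT5G23030) gave 4.7, 38.2 and 15.7 in wild type and 2.1, 16.9 and 35.8 in the mutant. Both varied more within each group than between the groups.

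TET14 (AT2G01960) gave 38.7, 13.6 and 8.6 in wild type, and 32.6, 35.8 and 36.5 in the mutant. The mutant arrays lay close together and within the wild type range. TET13 (AT2G03840), which has a role in root development, showed the reverse pattern, with a narrow wild type group around a mean of 22.7 (coefficient of variation 6.16%) and mutant values of 15.8, 45.1 and 25.4. TET4 (AT5G60220) ran from 1.6 to 38.7 in wild type and from 13.3 to 21.7 in the mutant. TET15 (AT5G57810) stayed at or below 11.8 on every array.

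**Figure D3:**
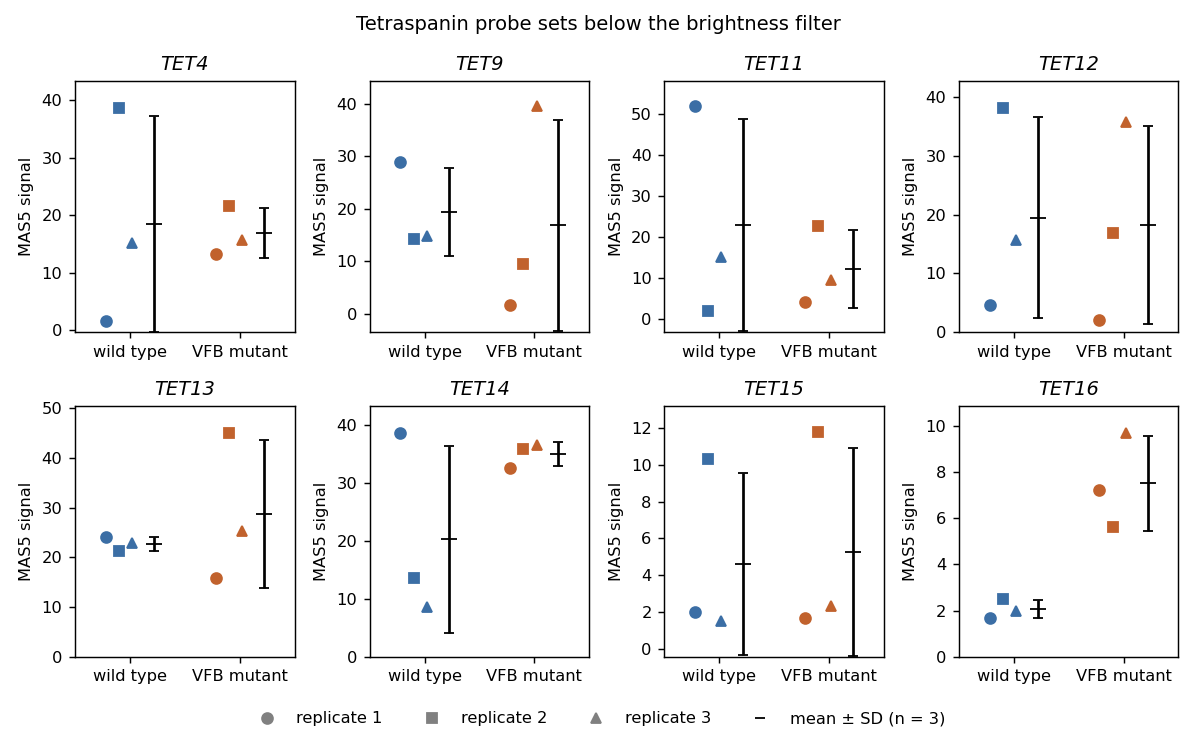
MAS5 signal (linear axis, separate scale per panel) of the 8 tetraspanins below the brightness filter, with 1 point per array and the mean ± SD of each group. All signals are at or below 51.9, and only the TET16 arrays separate by group.

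The change of TET10 was then set against that of each other tested member within the same array, since a single scaling factor per array cancels in a ratio of 2 probe sets, apart from the offset of 16. Under quantile normalization, which is not a single factor, the differences below keep their sign, and that for TET8 becomes -0.74. These 6 comparisons were chosen with the change of TET10 known. The log2 ratio of TET10 to TET8 lay between -1.73 and -1.45 in wild type and between -2.43 and -2.41 in the mutant. It was lower by 0.81 in the mutant (difference -0.81 ± 0.083, SE), which is 57.2% of the wild type ratio. The ratio to TET3 changed by -1.01 ± 0.184, and here too the groups did not overlap.

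The ratio to TET2 changed by -0.56, that to TET6 by -0.43 and that to TET5 by -0.42, each with no overlap. Only the ratio to TET7 overlapped between the groups, with a difference of -0.32. Since TET10 itself separated the groups, its ratio to a steady gene tends to separate as well. The 5 separated ratios therefore largely restate the fall of TET10, and the share of other probe sets with a separated ratio was not computed. An exact two-sided permutation test gave p = 0.1 for the 5 separated pairs, the smallest that 3 against 3 arrays allow, and p = 0.2 for TET7. Adjusted over the 6 pairs these were 0.12 and 0.2. With 3 arrays a group no pair could have reached 0.05, so these p-values say nothing about any pair at that threshold.

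**Figure D4:**
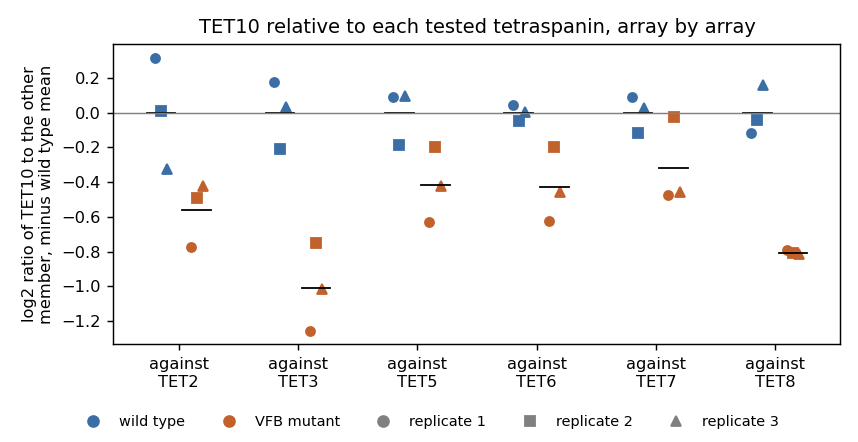
Log2 ratio of TET10 to each other tested tetraspanin on the same array, minus its wild type mean, with 1 point per array and a bar at each group mean. The mutant points lie below the wild type points for 5 of the 6 partners, and against TET8 the 3 mutant arrays nearly coincide at a mean of -0.81.

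Across the 6 arrays the tested members fell into like and unlike profiles. Likeness was measured as the Euclidean distance between log2 profiles, each centred on its own mean. Among 21 pairs, TET5 and TET6 were nearest, at a distance of 0.17. TET6 and TET7 followed at 0.20 and TET5 and TET7 at 0.22, and the next pair, TET2 with TET6, stood at 0.52. TET10 was nearest to TET7 among the members, at 0.55. These distances describe 6 arrays that share the group difference, and they carry no test.

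Outside the family, 5 of 7318 tested single-gene probe sets were nearest to TET10, at distances of 0.13 to 0.22 against a median of 0.97. They were AT3G61260, AT4G35940, AT3G24820, AT4G29690 and AT1G56220. AT3G61260, the nearest, gave 3174.6, 2929.1 and 2618.4 in wild type and 1443, 1925.7 and 1935.8 in the mutant. Like TET10 it was lowest in mutant replicate 1 and highest in wild type replicate 1, which its choice by nearness of profile favours. The choice of genes depended on single arrays: without mutant replicate 1 none of the 5 stayed among the nearest 5, and without mutant replicate 3 only 1 did. AT3G61260 was in the set under all other settings tried.

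**Figure D5:**
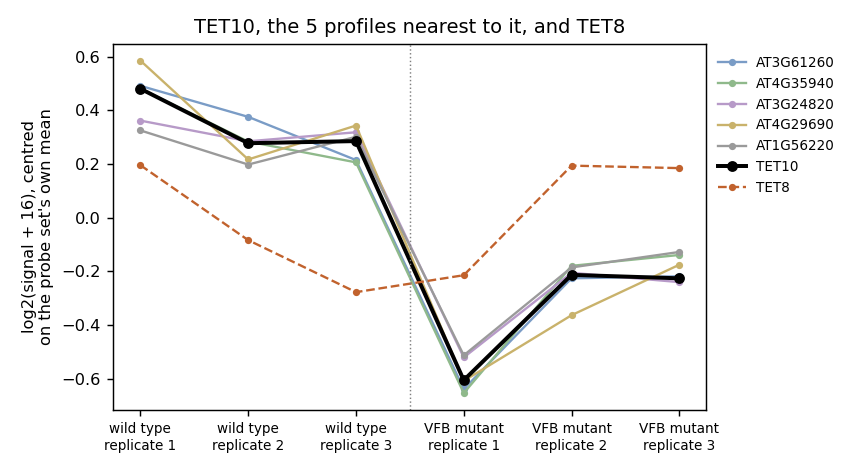
Log2(signal + 16) on each of the 6 arrays, centred on each probe set's own mean, for TET10, the 5 probe sets nearest to it and TET8. Lines join the values of 1 probe set and imply no order of arrays, and TET8 is drawn for contrast, as a member whose groups overlap.

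Lists of genes from related membrane and vesicle processes were read from the same fit, and no link of their members to tetraspanins was tested. A list of membrane microdomain genes, made up of flotillins, HIR proteins and remorins, had 11 loci, of which 7 had a probe set named here and 5 were tested. Of these 5, 2 fell and 0 rose, where 10.4% of all tested probe sets were called lower and 8.17% higher. The median log2 change was -0.62, and -0.05 over all tested probe sets. AT3G61260 fell from 2907 ± 279 to 1768 ± 282, by 0.72 on the log2 scale with an SE of 0.130 (limma, adjusted p = 0.0022). AT1G69840 gave 2614.2, 2098 and 1356.2 in wild type and 887.2, 1084.6 and 1047.6 in the mutant, and fell by 0.95 on the log2 scale (limma, adjusted p = 0.0043). Both passed in each of 15 alternative limma fits, but neither passed in the unequal-variance test (adjusted p = 0.164 and 0.254).

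The list of endosomal sorting genes (ESCRT), whose products bud vesicles into multivesicular bodies, had 10 tested of 11 genes. It was written after the annotation was read, and all 11 have a probe set named here, so 10 of 11 does not measure coverage of the pathway. In this list 1 fell and 0 rose, which is near the 10.4% called lower among all tested probe sets. The median log2 change was -0.25, and 8 of 10 changes lay below 0, as did 7657 of all 13647. VPS20.1, a core ESCRT subunit, gave 471.4, 518.1 and 522.9 in wild type and 397, 370.9 and 342.4 in the mutant. Its log2 change of -0.43 ± 0.125 passed as deposited (limma, adjusted p = 0.0307). It no longer passed after median centring (adjusted p = 0.0722), or without mutant replicate 3 (adjusted p = 0.0825), mutant replicate 2 (0.0763), wild type replicate 2 (0.104) or wild type replicate 3 (0.102).

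The exocyst is the complex that tethers secretory vesicles to the plasma membrane. Its list of 7 genes, 6 of them tested, was likewise written after the annotation was read and does not measure coverage of the complex. In limma 0 of the 6 were called, where 18.6% of all tested probe sets were. An unadjusted limma p below 0.05 was reached by 3 of the 6, and by 4288 of all 13647. An unequal-variance test called 0, but it called only 6 of all probe sets, so that count cannot decide anything here. EXO84B changed by -0.48 ± 0.175 (limma, adjusted p = 0.0775) and SEC15B by -0.45 ± 0.165 (limma, adjusted p = 0.0765). Without wild type replicate 1 both passed (adjusted p = 0.0287 and 0.0217), and EXO84B also passed without mutant replicate 2 (0.0306).

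The TOM2A list, tetraspanin-like proteins named for a gene needed in tobamovirus multiplication, had 3 tested of 4 loci. In limma 0 of the 3 were called, where 18.6% of all tested probe sets were. An unadjusted limma p below 0.05 was reached by 0 of the 3, and by 4288 of all 13647. The unequal-variance test called 0 of the 3 and only 6 of all probe sets, so its count cannot decide anything here. AT2G20740 gave 1208.8, 1015 and 936 in wild type and 735.4, 646.5 and 1189.1 in the mutant, where replicate 3 stood apart from the other mutant arrays. Its log2 change was -0.33 ± 0.190, and -0.59 without mutant replicate 3 (limma, adjusted p = 0.0153). A second, dimmer probe set of AT2G20740 gave 359 in mutant replicate 3, between the other mutant values of 330.2 and 470.1, so the 2 probe sets disagree on that array. That probe set changed by -0.43 ± 0.158 and did not pass over all probe sets (limma, unadjusted p = 0.0172, adjusted p = 0.0771), and it is not in the counts above, which use the brighter one. AT4G28770 changed by -0.20 ± 0.107. Of 17 secretion and vesicle genes only ARA6, an endosomal Rab GTPase, had a probe set named here, and its log2 change was 0.06 ± 0.115. Of 8 auxin transport and TORNADO genes 0 had one.

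Some values that could move with tissue makeup or RNA quality also differed between the groups. Of 4 green shoot markers 3 had a probe set, and their summed signal ran from 49973.5 to 54653.7 in wild type and from 59809.5 to 65995.9 in the mutant. Each of the 3 was higher in every mutant array than in any wild type array, while groups did not overlap in 36.1% of all tested probe sets. Only PRK passed, with a log2 change of 0.43 (limma, adjusted p = 0.0166), where 18.6% of all tested probe sets did. RCA changed by 0.28 (adjusted p = 0.0802) and LHCB4.1 by 0.19 (adjusted p = 0.251). Of 4 root markers 3 had one, with sums of 12840.7 to 13692.3 in wild type and 12493.4 to 17166.1 in the mutant, most of which is PYK10. The root markers did not move one way: PYK10 changed by 0.20 ± 0.118 and did not pass (limma, adjusted p = 0.274). AT4G26010 fell by 1.07 on the log2 scale and passed (limma, adjusted p = 0.0112). EXPA7 lay below the filter and was not tested, with a log2 change of -0.82 and groups that overlapped. No marker was listed at 0, and the seed reserve and dividing tissue markers had no probe set named here. The 3' to 5' signal ratio of actin ran from 2.55 to 3.00 on the wild type arrays and from 3.19 to 3.56 on the mutant arrays. The same ratio overlapped between the groups for GAPDH, where the wild type range of 1.08 to 1.19 lay within the mutant range, and for ubiquitin, at 1.33 to 1.53 and 1.46 to 1.89. The part of these differences in the fall of TET10 was not tested.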

How the data were processed

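RNA from 6 seedling samples was hybridised to Affymetrix ATH1 arrays, about 80 mg of tissue and 6 µg of total RNA per sample, per the labels' protocols. The deposited values are probe set intensities that the authors made with MAS5, per the submitters' processing notes, in a version and with settings not given in the sources used here. All arrays had a trimmed mean of 500 (2% off each end), so the signals had been scaled per array. The 64 control probe sets were left out. No detection calls were used.

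Gene names came from the platform annotation, updated by Entrez number through RefSeq (TAIR10.1), which matched all 15 tetraspanins. No coordinates or sequences are printed. Where a listed gene had several probe sets, the brightest was used.

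Samples were grouped by title. The groups' difference was fitted by limma 3.58.1 (lmFit, eBayes with trend; R 4.3.3) on log2(signal + 16), adjusted by Benjamini-Hochberg over 13647 probe sets at 0.05. The fit was run on simulated independent values as a check of the code, which cannot show how well it suits these arrays. The number of arrays, 3 per group, limits precision. No label says whether the replicates were grown apart, so the spread behind each p-value is that among these samples and may be technical. Same-numbered arrays did not deviate together (correlations -0.20, 0.02 and -0.17), so the numbers were not taken as pairs.

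The members and lists were chosen with earlier results of these data known, and the ESCRT and exocyst lists were added after the annotation was read. Named genes are every tetraspanin, in each list up to 4 called members per direction or, with none called, the 2 largest changes, and the 5 profiles nearest to TET10. Alternatives were other offsets, scalings, filters, variance models and thresholds, a replicate block, an unequal-variance test and leaving out each array. Figures were drawn with matplotlib 3.10.9.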

Additional observations from a re-analysis of the deposited data

How the results depend on the processing

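TET10 kept its direction and its call in all 15 alternative limma fits, with a largest adjusted p of 0.0191, without wild type replicate 1, but not in the unequal-variance test (adjusted p = 0.163). Leaving out 1 array moved its log2 change between -0.76 and -0.57. No pairing of the arrays was taken from the replicate numbers. With the replicate number as a block TET10 passed (adjusted p = 0.0137), 1988 probe sets were called in place of 2541, VPS20.1 lost its call (adjusted p = 0.0742), leaving 0 ESCRT genes, and 1 exocyst gene, EXO84B, was gained (adjusted p = 0.0342). The count of called tetraspanins was 1, but 2 after median centring (TET3 added), 0 by the unequal-variance test, which called 6 of all probe sets, and 1 to 2 when an array was left out. A threshold of 0.01 left 1225 calls. Over all probe sets, leaving out an array gave 1696 to 2266 calls. Of the calls, 43.9% were higher in the mutant as deposited, 48.9% after quantile normalization and 61.8% after median centring. That centring left 0 ESCRT calls. With an array left out the ESCRT list had 0 to 1, the exocyst list 0 to 2, the TOM2A list 0 to 1 and the microdomain list 2 calls. Of the 7 tested members only TET8 changed sign, to -0.0012 without wild type replicate 3, and ran up to 0.24 without mutant replicate 1. ARA6 ran from -0.024 to 0.13, without wild type replicates 3 and 2. The 60th percentile filter leaves out TET2, TET5 and TET6. The causes were not tested. The dim members TET4, TET9, TET11, TET12, TET13 and TET15 also changed sign when an array was left out, and their signals are too low for a direction to be read.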
